A study of Homo sapiens with 18 samples.

Results

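Acetylated regions that lie between genes, at a distance from any promoter, were described in HEK293T cells, an established human line derived from embryonic kidney, with and without an inhibitor of histone deacetylases. H3K27ac, histone H3 acetylated at lysine 27, had been measured by ChIP-seq in 3 libraries of untreated cells (CTRL) and 3 libraries of cells given 1 mM valproic acid for 1 day (VPA). CTCF had been measured in another 3 CTRL and 3 VPA libraries, and both treatments used the same line with no genetic change between them. The peaks of the 6 H3K27ac lists were merged where they shared at least 1 bp, and the summit of a region was that of its peak with the highest −log10 q-value. A region was kept when its summit lay outside every protein-coding gene body, over 5 kb and up to 100 kb from the nearest protein-coding transcription start site (TSS), and over 1 kb from every lncRNA start. This left 9638 of 55382 H3K27ac regions (17.4%), compared with 19406 regions inside genes at the same distances (35.0%) and 10103 within 1 kb of a protein-coding TSS (18.2%). All regions lay on the 22 autosomes, and the sex chromosomes were not analysed here.

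Lysine 27 of histone H3 is acetylated by the acetyltransferases p300 and CBP and deacetylated by histone deacetylases, and it marks active promoters and enhancers. Enhancers are stretches of DNA, often between genes, to which transcription factors bind and from which they raise the transcription of genes at a distance. Valproic acid blocks class I and IIa deacetylases, and CTCF is a zinc finger protein that anchors chromatin loops and bounds domains.

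The rule was checked against the annotation. "Between genes" holds for protein-coding genes, since 2208 of the 9638 regions (22.9%) had their summit inside a lncRNA gene body. Another 610 (6.33%, 95% Wilson interval 5.86 to 6.83) lay within 1 kb of an annotated start that the rule did not use. Of these starts, 203 belonged to an alternative transcript of a protein-coding or lncRNA gene and 407 to another gene type, such as a pseudogene or a small nuclear RNA gene. The distance limits cut through a continuous distribution, with 173 regions from 4.5 to 5 kb (just outside) and 185 from 5 to 5.5 kb (just inside), and with 141 in the last 5 kb below 100 kb (just inside) and 156 in the 5 kb above it (just outside).

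The label of the cells was checked at promoters. Peaks in all 6 libraries were found at LHX1, NEFL, NEFM, INA, VIM and KRT18, genes this line is known to use, and in none at PAX2, a kidney factor also known from it. No library had a peak at the promoters of ALB, PTPRC, CD3E, INS or HBB, which mark hepatocytes, leukocytes, T cells, beta cells and red cells. The H3K27ac lists held 26299 to 29799 peaks in CTRL and 38441 to 40992 in VPA. Read totals are unknown, and the background coverage recovered from the lists (3.51 to 3.95 fragments) was similar across libraries. Replicate 1 of both treatments stood apart from replicates 2 and 3: the median fold enrichment of promoter peaks was 9.43 and 8.32 in replicate 1 and 21.3 to 27.1 in the others. The labels do not say what the replicate numbers share or whether the replicates were separate cultures, so p-values measure only the spread between these libraries, which may be technical.

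The sequences of 5 regions are shown because each stands for a group described further on. Each is the 300 bases around the summit, read from hg38 on the plus strand, 5′ to 3′, with matches to the searched motifs in capitals on either strand. The name is that of the nearest protein-coding TSS or, for the last 2, of the small nuclear RNA gene beside the summit. The window near LAPTM5 (chr1:30778785-30779084) belonged to a region found in every VPA library and in no CTRL library, and its capitals mark a GATA match (AGATAA). The window near THSD4 (chr15:71078616-71078915) was found only in CTRL, and its capitals mark the E-box CACGTG. The window near SMIM47 (chr19:50804285-50804584) had strong peaks in all 6 libraries and holds many CpG dinucleotides, with an SP/KLF match (GGGCGG) and the E-box CACGTG in capitals. The windows beside RNU4-2 (chr12:120291877-120292176) and RNU1-3 (chr1:16666926-16667225) were lower in VPA, with an octamer (ATGCAAAT) and a CRE (TGACGTCA) in capitals in the former and the E-box CAGCTG in the latter.
LAPTM5: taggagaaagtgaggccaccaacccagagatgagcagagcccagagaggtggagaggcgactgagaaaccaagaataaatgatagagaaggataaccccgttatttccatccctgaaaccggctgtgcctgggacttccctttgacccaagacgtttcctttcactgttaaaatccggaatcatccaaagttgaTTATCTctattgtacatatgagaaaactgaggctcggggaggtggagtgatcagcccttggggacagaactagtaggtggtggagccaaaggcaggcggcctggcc
THSD4: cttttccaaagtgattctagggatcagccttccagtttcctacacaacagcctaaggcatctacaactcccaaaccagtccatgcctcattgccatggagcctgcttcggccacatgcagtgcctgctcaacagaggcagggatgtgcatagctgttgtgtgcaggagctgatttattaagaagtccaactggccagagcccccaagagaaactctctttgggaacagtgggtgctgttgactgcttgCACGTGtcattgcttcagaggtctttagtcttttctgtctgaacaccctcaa
SMIM47: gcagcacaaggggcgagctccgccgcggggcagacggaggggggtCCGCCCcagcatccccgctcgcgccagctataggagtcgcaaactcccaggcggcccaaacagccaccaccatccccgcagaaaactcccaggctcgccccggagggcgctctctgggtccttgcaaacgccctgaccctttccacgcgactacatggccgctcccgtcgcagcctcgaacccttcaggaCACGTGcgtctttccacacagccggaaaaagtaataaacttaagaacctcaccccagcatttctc
RNU4-2: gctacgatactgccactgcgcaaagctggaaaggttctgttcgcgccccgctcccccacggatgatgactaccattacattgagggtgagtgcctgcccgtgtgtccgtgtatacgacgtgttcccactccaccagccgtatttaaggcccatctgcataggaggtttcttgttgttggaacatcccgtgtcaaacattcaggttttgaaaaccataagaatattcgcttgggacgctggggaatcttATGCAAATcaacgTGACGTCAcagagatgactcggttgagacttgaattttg
RNU1-3: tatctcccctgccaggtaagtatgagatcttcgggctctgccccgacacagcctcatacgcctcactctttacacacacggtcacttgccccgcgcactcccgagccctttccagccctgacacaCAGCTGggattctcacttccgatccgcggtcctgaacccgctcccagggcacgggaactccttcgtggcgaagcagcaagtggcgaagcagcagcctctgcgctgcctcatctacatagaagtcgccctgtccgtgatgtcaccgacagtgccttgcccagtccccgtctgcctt

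Regions between genes were found far more often after VPA. In CTRL, 2881, 3567 and 3539 of the 9638 regions had a peak (29.9%, 37.0% and 36.7%), compared with 5990, 6513 and 6284 in VPA (62.1%, 67.6% and 65.2%). The libraries of the 2 treatments did not overlap. The 9638 regions come from these same lists, so the percentages here and below depend on which lists were merged. Through peaks in 1, 2 or 3 VPA libraries alone, 2997, 1187 and 725 regions entered the set. Through CTRL libraries alone, 332, 52 and 6 did. CTRL libraries averaged 3329 ± 388 such regions and VPA libraries 6262 ± 262 (SD over 3 libraries each), 1.88 times as many, and the exact permutation test gave p = 0.1 (two-sided), the smallest that 3 against 3 libraries allow (adjusted p = 0.133 over 4 tests). The difference was 3109, 2946 and 2745 regions within replicates 1, 2 and 3. Inside genes 6375 ± 323 regions had a peak in CTRL against 11339 ± 404 in VPA, a ratio of 1.78, and at promoters 9294 ± 439 against 9583 ± 390, a ratio of 1.03 (SD over 3 libraries each, no test).

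Because the VPA lists were longer, the regions were also counted against the others in the same list. They made up 12.3%, 13.1% and 13% of the regions with a peak in CTRL and 17.3%, 16.3% and 16.4% in VPA, a difference of 3.85 percentage points (exact permutation p = 0.1, adjusted p = 0.133). Per list, the log2 ratio of regions between genes to regions inside genes was −0.94 ± 0.10 without VPA and −0.86 ± 0.02 with it (SD over 3 libraries each, exact permutation p = 0.1, adjusted p = 0.133). Its difference of 0.09 was 0.18 within replicate 1, 0.02 within replicate 2 and 0.05 within replicate 3, and it was 0.03 without CTRL replicate 1. With every list limited to its 26299 strongest peaks, the difference between the classes was larger. Regions between genes then numbered 2979 in CTRL and 3615 in VPA on average (ratio 1.21), those inside genes had a ratio of 1.03, and the log2 ratio differed by 0.24 (exact permutation p = 0.1).

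Most of the added regions were found in few libraries. Of the 9638, 3329 (34.5%) had a peak in 1 library, and in 2997 of these it was a VPA library. The share in 1 library was 30.4% of all H3K27ac regions and 41.2% of regions inside genes. A peak in more VPA than CTRL libraries was found at 6378 regions (66.2%), against 51.4% of all H3K27ac regions and 64.0% of regions inside genes. The reverse was found at 596 (6.18%), against 7.64% and 9.86%. All 6 libraries shared 1937 regions (20.1%), compared with 33.2% of all H3K27ac regions. Regions in all 6 libraries had a median width of 1990 bp, those only in VPA 1061 bp and those in 1 library 424 bp.

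**Figure D1:**
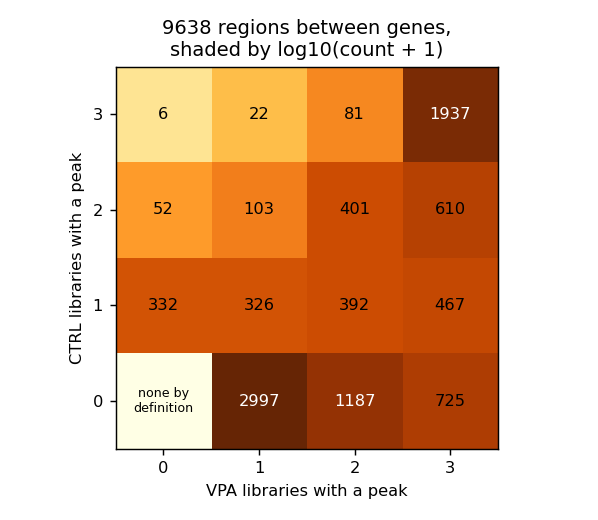
Number of regions between genes by how many CTRL libraries (vertical axis) and VPA libraries (horizontal axis) had a peak, shaded on a log10 scale. The largest cells are 2997 regions in 1 VPA library alone and 1937 in all 6 libraries, and the column of 0 VPA libraries holds few regions.

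All 3 VPA libraries but no CTRL library had a peak at 725 of the 9638 regions (7.52%, Wilson interval 7.01 to 8.07), against a background of 4.12% of all H3K27ac regions, 4.62% of regions inside genes and 0.396% of promoters. The reverse pattern was found at 6 regions (0.0623%), against 0.139% of all. The count only in VPA was 206 (2.14%, background 0.975%) with equal list lengths. It was 1433 (14.9%, background 10.1%) without VPA replicate 1, when 2 libraries rather than 3 had to have a peak. The count only in CTRL was 35 with equal list lengths, 47 without CTRL replicate 1 and 11 to 18 without any other library.

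The strongest regions only in VPA, by their mean rank within the lists, were moderate peaks. The region near LAPTM5, a lysosomal membrane protein of blood cells, lay 21.2 kb upstream of its TSS (chr1:30777634-30780057), with a fold enrichment of 5.18, 8.90 and 6.39 and summit pileups of 114, 103 and 94 fragments in VPA replicates 1, 2 and 3. Regions near CHMP6 (a subunit of the ESCRT-III complex, at 4.67, 5.19 and 6.54) and HRH4 (a histamine receptor, at 11, 6.14 and 5.57) were next among those described here. Those near APOD (a lipocalin, at 12, 5.70 and 8.82) and TLX3 (a homeobox factor, at 6.98, 6.51 and 6.19) came after them. CTCF peaks in all 6 CTCF libraries overlapped those near LAPTM5, HRH4 and APOD, and none overlapped that near CHMP6. The promoter of the nearest gene had H3K27ac in all 6 libraries for CHMP6, in 1 for LAPTM5 and in none for HRH4.

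The 6 regions only in CTRL had no CTCF peak in any library. The median over these regions of the mean fold enrichment was 3.74, and over the 725 regions only in VPA 3.65. The region near THSD4, an extracellular matrix protein, reached 7.56, 5.67 and 3.66 in CTRL replicates 1, 2 and 3 (chr15:71078513-71080374), followed by those near FAM217A (4.11, 3.18 and 3.56) and GOLGA6L10 (3.67, 3.55 and 3.93), the latter in a multicopy gene family. Regions near KLHL38 and LRATD2 lay on chromosome 8, and the region near SMUG1, a uracil-DNA glycosylase, was the weakest at 2.65, 2.58 and 2.12. The LRATD2 and SMUG1 regions were beyond the 4 that the rule names and were chosen after their values were seen.

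Sequence composition differed between the regions found only in VPA and the rest. The set had a median GC content of 51.3% in the 300 bases around the summit, close to the 51.0% of regions inside genes and below the 69.3% of promoters. At least 10 CpG dinucleotides were found in 24.8% of them, in 42.6% of those with a peak in all 6 libraries, in 11.4% of those only in VPA and in 92.6% of promoters. The 7247 regions with under 10 CpG had a peak in 26.3%, 29.0% and 29.5% of cases in CTRL and in 63.8%, 63.4% and 60.3% in VPA, a ratio of 2.21. The 2391 with at least 10 CpG had one in 40.7%, 61.4% and 58.6% in CTRL and in 57.2%, 80.2% and 80.1% in VPA, a ratio of 1.35. CpG-rich regions were thus found less often in replicate 1 of both treatments than in replicates 2 and 3, and the VPA and CTRL ranges overlapped. The share only in VPA was 8.86% (Wilson interval 8.23 to 9.54) below 10 CpG and 3.47% (2.81 to 4.28) from 10 CpG on. With equal list lengths the ratios were 1.32 and 1.05.

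Alu elements, short interspersed repeats present in very many copies in primate genomes, were recognised in several summit windows, and the string GGGATTACAG of their consensus was therefore searched on both strands. This search was chosen after the sequences had been read. The string was found in 1814 of the 9638 windows (18.8%), in 26.3% of regions inside genes, in 1.94% of promoters and in 16.9% of all H3K27ac regions. It was found in 29.4% of the regions only in VPA (213 of 725, Wilson interval 26.2 to 32.8), in 13.3% of those in all 6 libraries (11.8 to 14.9) and in 0 of the 6 only in CTRL.

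Regions that carried the Alu string had the larger ratio of VPA to CTRL, between genes and inside them. Between genes, 25.7%, 22.7% and 23.3% of the 1814 had a peak in CTRL, and in VPA 71.1%, 59.6% and 57.2%, a ratio of 2.62. Without the string, 30.9%, 40.3% and 39.8% of 7824 regions had a peak in CTRL and 60.1%, 69.4% and 67.1% in VPA, a ratio of 1.77. Regions with the string were only in VPA in 11.7% of cases (10.3 to 13.3), compared with 6.54% (6.02 to 7.11) without it. Within the regions of under 10 CpG the shares were 12.8% and 7.94%, and the ratios 3.00 and 2.09. With equal list lengths the ratios of all regions with and without the string were 1.52 and 1.17. Inside genes the ratios were 2.28 with the string and 1.66 without it (1.08 and 1.02 with equal list lengths), 5.47% and 4.31% were only in VPA, and 31.1% of the regions only in VPA carried the string.

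The share of regions with the Alu string among those with a peak was compared between libraries as 1 value each. It was 16.2%, 11.5% and 11.9% in CTRL and 21.5%, 16.6% and 16.5% in VPA, so the groups did not overlap but came close, since CTRL replicate 1 lay just below VPA replicates 2 and 3. The difference was 5.01 percentage points (exact permutation p = 0.1, adjusted p = 0.2 over 2 tests), and with equal list lengths 3.17 (exact permutation p = 0.3). For regions inside genes this share was 18.9% ± 4.93 without VPA and 24.1% ± 5.09 with it (SD over 3 libraries each, exact permutation p = 0.3, adjusted p = 0.3). Alu copies are similar enough that reads can be placed at the wrong copy, and how reads with several matches were treated is not given in the sources used here. Their part in these values was not tested.

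**Figure D2:**
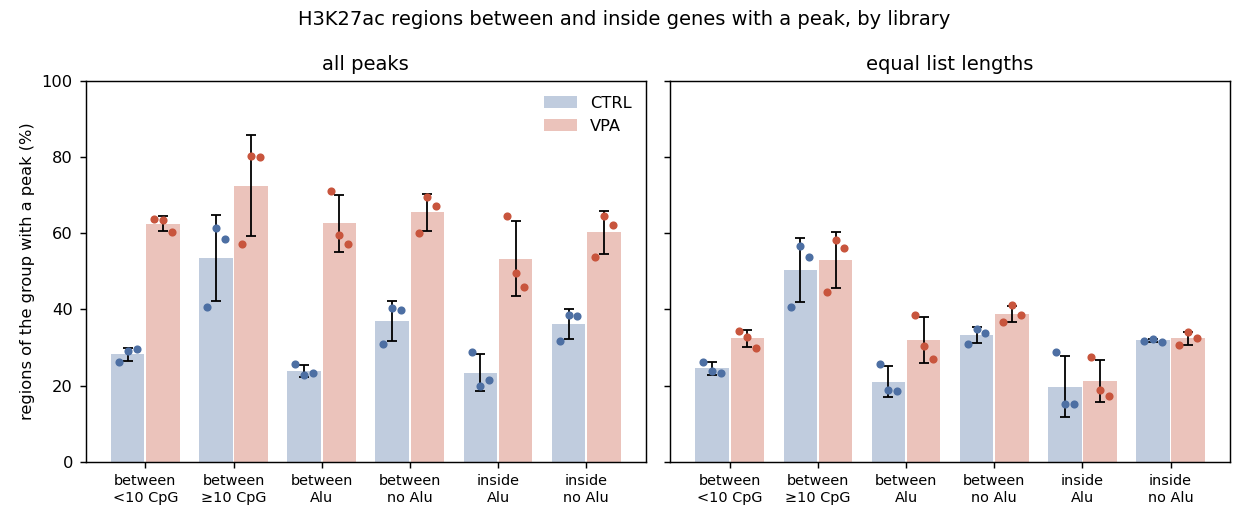
Percent of the regions of each group with an H3K27ac peak, for all peaks (left) and with every list limited to the same length (right), where bars are means, error bars SD and points the 3 libraries of CTRL (blue) and VPA (red). With all peaks, regions between genes with the Alu string go from 25.7% or less in CTRL to 57.2% or more in VPA, and with equal lengths the regions inside genes without the string have nearly the same level in both treatments.

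Other motifs were compared in the same windows. The AP-1 motif TGANTCA was found in 9.82% of the windows, in 12% of those only in VPA and in 7.68% of all H3K27ac regions. The GATA motif AGATAA was found in 11.2%, 12.7% and 9.84% and the TEAD motif GGAATG in 14.8%, 14.5% and 12.6%. The SP/KLF motif GGGCGG, which is frequent in CpG islands, was found in 16.9% of the windows, 11.6% of those only in VPA and 25.7% of those in all 6 libraries, compared with 63.7% of promoters. The ETS motif CCGGAAG was found in 2.51% of the windows, 1.52% of those only in VPA and 4.28% of those in all 6 libraries. The core CTCF motif was found in 6.42%, 3.72% and 7.69%. SP/KLF, ETS and CTCF matches were thus rarer in the regions only in VPA than in those in all 6 libraries, the reverse of the Alu string. Of the other motifs in capitals above, CAGCTG was found in 17.4% of the windows and 16.1% of all H3K27ac regions, CACGTG in 5.20% and 4.64%, ATGCAAAT in 0.913% and 0.890% and TGACGTCA in 0.218% and 0.211%. All were searched on both strands, motifs can overlap each other, and a match is a description of the letters only.

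The ratio of VPA to CTRL was larger for the regions nearest to a TSS. From 5 to 10 kb, 422, 543 and 529 of 1616 regions had a peak in CTRL and 1011, 1072 and 1061 in VPA, a ratio of 2.10. From 50 to 100 kb, 759, 953 and 960 of 2354 had a peak in CTRL and 1425, 1594 and 1512 in VPA, a ratio of 1.70. The number from 5 to 10 kb per region from 50 to 100 kb was 0.556, 0.570 and 0.551 in CTRL and 0.709, 0.673 and 0.702 in VPA, and the groups did not overlap. Inside genes the same quotient was 0.857, 0.865 and 0.848 in CTRL and 1.00, 1.00 and 1.03 in VPA. With equal list lengths the ratios between genes were 1.33, 1.27, 1.21 and 1.11 from the nearest to the farthest of 4 distance bins (5 to 10, 10 to 20, 20 to 50 and 50 to 100 kb). Inside genes they were 1.06, 1.05, 1.05 and 0.950, and the share only in VPA was then 0.731%, 0.702%, 0.921% and 1.08%. The bins were not tested.

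The share only in VPA was 9.34% from 5 to 10 kb, 8.65% from 10 to 20 kb, 7.01% from 20 to 50 kb and 6.03% from 50 to 100 kb. Inside genes the same bins held 4.72%, 4.65%, 4.85% and 4.10%. The Alu string moved along with distance, since it was found in 26.0%, 23.6%, 16.6% and 12.9% of the regions between genes in these bins. Among regions without the string the share only in VPA was 7.86%, 8.04%, 6.25% and 5.02%, and among those with it 13.6%, 10.6%, 10.8% and 12.8%. The ratio of VPA to CTRL was 1.91, 1.87, 1.77 and 1.62 without the string and 2.97, 2.71, 2.44 and 2.44 with it. The ratio thus declined with distance in both groups, while the share with the string had wide intervals (10.6 to 17.2 in the nearest bin and 9.53 to 17.1 in the farthest).

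**Figure D3:**
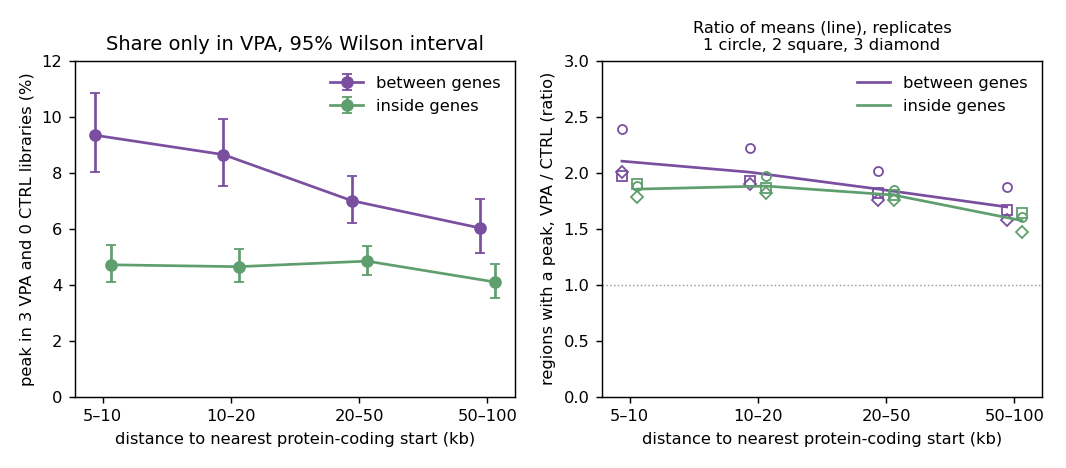
Left, percent of regions found in every VPA and no CTRL library by distance from the nearest protein-coding TSS, between genes (purple) and inside genes (green), with 95% Wilson intervals that cover counting error only. Right, the ratio of VPA to CTRL regions with a peak, as lines for the ratio of means and symbols for replicates 1, 2 and 3; between genes the line falls from 2.10 to 1.70.

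By chromosome the observed gain differed, and these differences were not tested. The share only in VPA ranged from 5.17% (9 of 174 regions) on chromosome 18 to 12.2% (33 of 271) on chromosome 20, with 11.7% (54 of 463) on chromosome 19. The ratio of VPA to CTRL regions with a peak was 2.42 on chromosome 20 and 2.36 on chromosome 19, and 1.65 on chromosome 15. The Alu string was found in 30.9% of the regions on chromosome 19, the highest share of the 22 autosomes, and in 18.5% on chromosome 20.

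Peak height could be compared at the 1937 regions that all 6 libraries shared. It is given as the caller's fold enrichment, the summit's fragment count relative to that modelled for its surroundings. Its median over the 1937 regions was 5.62, 7.15 and 7.05 in CTRL and 6.59, 8.21 and 8.35 in VPA, higher in VPA within each replicate number but with overlapping groups. The same 3 pairs at promoters were 9.43, 27.1 and 24.9 in CTRL and 8.32, 21.3 and 21.4 in VPA. The median log2 difference (VPA minus CTRL) was 0.14 between genes, 0.06 inside genes, −0.26 at promoters and −0.14 over all 18407 regions tested. Centring each library on its median gave 0.22 between genes and −0.18 at promoters, and the summit pileup over background coverage gave 0.07 and −0.42. On the pileup scale the median between genes was 0.18, −0.02 and 0.03 within replicates 1, 2 and 3, so it was not higher within replicate 2, and inside genes it turned to −0.03. The values between genes stayed above those at promoters on each scale. The peaks between genes also covered more of each region, with a median of 974, 1247 and 1249 bp in CTRL and 1408, 1737 and 1622 bp in VPA. So did the peaks at promoters, with 1864, 2337 and 2326 bp in CTRL and 2198, 2833 and 2711 bp in VPA.

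Single regions were tested with limma and Benjamini-Hochberg adjustment over all 18407 regions. Without the replicate number in the fit, 0 regions were called higher in VPA (background 0%) and 0 lower (background 0%). At an unadjusted p under 0.05, 87 of the 1937 regions between genes were higher and 5 lower, compared with 253 and 48 of all 18407. Replicate 1 lay apart from the other replicates in both treatments by more than VPA lay from CTRL. With the replicate number as a block, 238 of the 1937 were called higher (12.3%, background 4.73% of all regions) and 86 lower (4.44%, background 11.8%). Promoters had 108 of 8693 called higher and 1352 lower, and regions inside genes 294 and 241 of 3400. After centring and with the block, 300 regions between genes were called higher (15.5%, background 6.45%) and 66 lower (3.41%, background 8.57%). On the pileup scale with the block the counts were 582 (30.0%, background 12.2%) and 463 (23.9%, background 53.7%). Without replicate 1 and without the block they were 167 (6.09%, background 2.79%) and 62 (2.26%, background 6.19%).

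**Figure D4:**
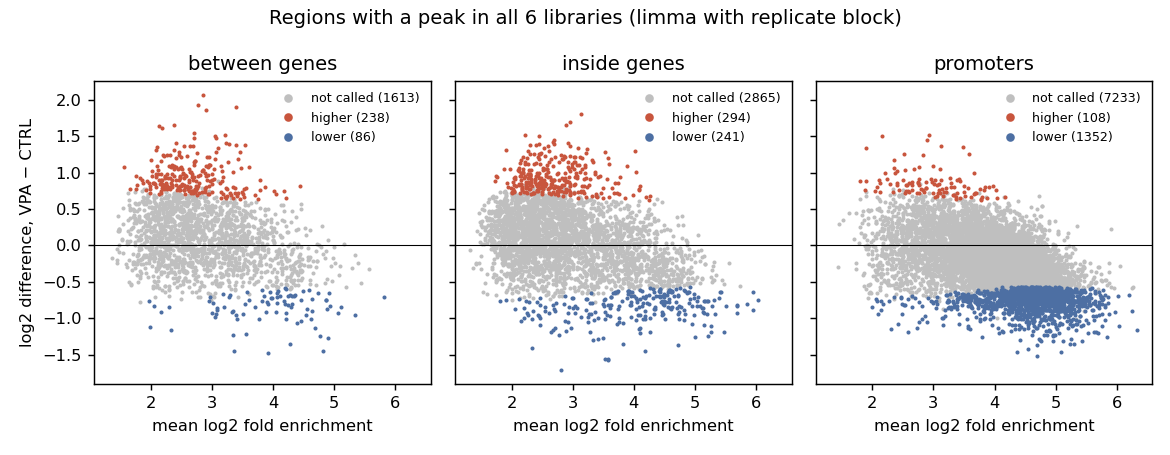
Log2 difference in fold enrichment (VPA minus CTRL) against the mean log2 fold enrichment of regions that all 6 libraries shared, with regions called higher (red) or lower (blue) by limma with the replicate block. Between genes 238 are called higher and 86 lower, at promoters 108 and 1352, and lower regions lie mostly at high mean fold in each panel.

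The difference depended on the height of the peak. Between genes the median log2 difference was 0.27 at a mean log2 fold from 2 to 3 (969 regions), 0.07 from 3 to 4 (563) and −0.28 from 4 to 5 (198). Promoters of the same heights were at 0.04, −0.11 and −0.35, and regions inside genes at 0.21, −0.003 and −0.33. CpG content divided the regions within these heights: from 3 to 4 it was 0.21 for regions of under 10 CpG and −0.04 for those of at least 10, and from 4 to 5 it was 0.02 and −0.37. Over all heights it was 0.28 and −0.05 between genes and 0.21 and −0.12 inside genes. Regions with the Alu string had a median difference of 0.41 and those without it 0.10. Of the 257 tested regions with the string, 62 were called higher and 3 lower in the blocked fit, and of the 1680 without it 176 and 83. Inside genes the medians were 0.24 with the string and 0.02 without it. There 72 of 535 with the string were called higher and 5 lower, and of the 2865 without it 222 and 236.

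The regions called higher with the largest differences were named after the blocked fit was seen, since the fit without the block called none. A region 27.3 kb upstream of ADGRE5, an adhesion receptor, had a fold enrichment of 3.54, 3.84 and 3.29 in CTRL and 15.4, 15.5 and 13.9 in VPA (chr19:14351895-14355024). The groups were far apart, with a log2 difference of 2.07 (SE 0.23, limma adjusted p = 0.000476). The region upstream of FTH1, the ferritin heavy chain, went from 3.35, 3.30 and 3.92 to 16.9, 12.1 and 11.7 (log2 difference 1.93, SE 0.24, limma adjusted p = 0.000517). Those near CEP350 (a centrosomal protein), MYO10 (a myosin of filopodia) and CABLES1 (a partner of cyclin-dependent kinases) had differences of 1.90, 1.86 and 1.66. The windows near FTH1, CEP350, MYO10 and CABLES1 carried the Alu string, and that near ADGRE5 did not. The promoters of all 5 genes had H3K27ac in 6 libraries.

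Among the regions called lower, small nuclear RNA genes stood out. These genes encode the RNA components of the spliceosome, they are short, and the rule of the set did not use them because they are neither protein-coding nor lncRNA genes. Of the 86 regions called lower, 29 (33.7%) lay within 1 kb of an annotated start of any transcript, compared with 10 of the 238 called higher (4.20%) and 191 of the 1937 tested (9.86%). These 29 starts were of several kinds: 8 were of a protein-coding or lncRNA transcript and 21 of another gene type. Inside genes 155 of the 241 regions called lower lay within 1 kb of such a start, compared with 50 of the 294 called higher and 1251 of the 3400 tested. Within 1 kb of a small nuclear RNA start lay 11 of the 86, compared with 2 of the 238 called higher. The small nuclear RNA group was picked after the 5 largest decreases were seen, so its values are a description.

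The region with the largest decrease lay 149 bp from RNVU1-31, a variant U1 gene, with NBPF20 as the nearest protein-coding gene. It had a fold enrichment of 17.3, 35.0 and 26.7 in CTRL and 5.24, 10.3 and 13.9 in VPA (log2 difference −1.48, SE 0.22, limma adjusted p = 0.00163 with the block). The region 124 bp from RNU4-2, a U4 gene, near SIRT4, had 42.0, 43.4 and 54.4 in CTRL and 11.3, 22 and 19.7 in VPA. The region 128 bp from RNU1-3, a U1 gene, near NBPF1, had 35.6, 65.6 and 42.7 in CTRL and 13.4, 23.4 and 22.1 in VPA. In all 3 every VPA library lay below every CTRL library.

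Within 1 kb of a small nuclear RNA start lay 36 of the 9638 regions, and 22 of these had a peak in all 6 libraries. Of the 22, 17 had a lower mean in VPA, 11 were called lower and 2 higher, and the median log2 difference was −0.67. All 11 regions beside a U1 or variant U1 gene had a lower mean in VPA, with a median log2 difference of −1.01, and the sign was the same for all 11 after centring (median −0.93) and on the pileup scale (−1.13). The U1 pseudogene RNU1-84P, not counted among them, lay at 0.71 (limma adjusted p = 0.0506 with the block). Of the 11, 9 were called lower, compared with 7 after centring and 11 on the pileup scale, each with the block. Over all regions tested, the shares called lower in these 3 fits were 11.8%, 8.57% and 53.7%. The 2 called higher lay beside the U6 pseudogenes RNU6-1114P and RNU6-1133P, at weak peaks. U1 genes and the NBPF and PPIAL4 families around them are near-identical copies on chromosome 1, so the values of single copies are uncertain. Tall peaks were lower in VPA in general, as given above, and the part of peak height in these differences was not tested.

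**Figure D5:**
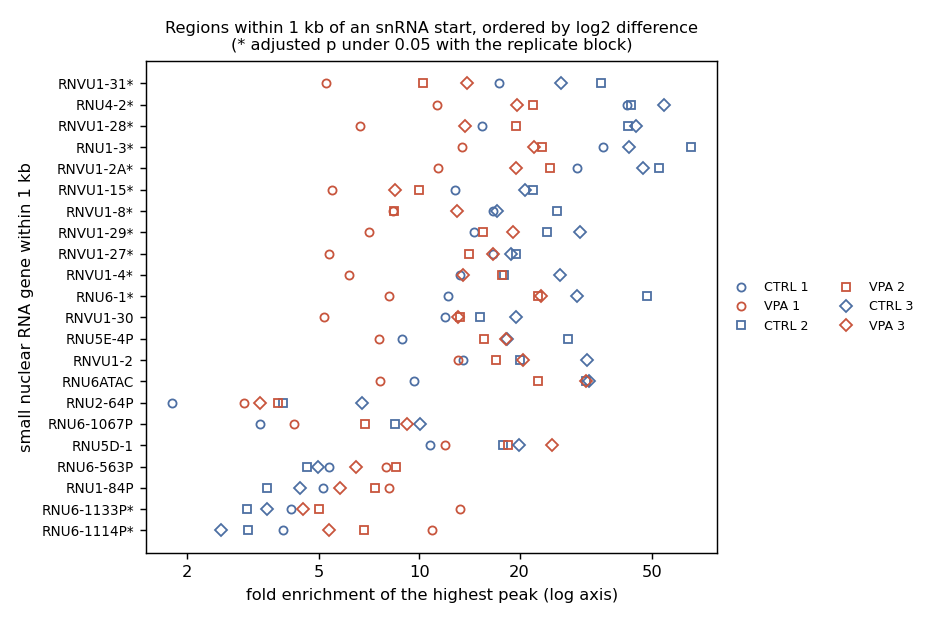
Fold enrichment (log axis) of the 22 regions between genes within 1 kb of a small nuclear RNA start and with a peak in all 6 libraries, for CTRL (blue) and VPA (red) replicates 1 (circles), 2 (squares) and 3 (diamonds), ordered by log2 difference. The U1 and U4 genes have the lower mean in VPA, with overlapping libraries at several of them, such as RNVU1-2 and RNVU1-4. At the pseudogenes RNU6-1114P, RNU6-1133P, RNU6-563P and RNU1-84P every VPA library lies above every CTRL library.

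The other named decrease was near CEBPA, a transcription factor of myeloid and fat cells, 8.61 kb downstream of its TSS (chr19:33292219-33294897). Its fold enrichment was 17.6, 17.1 and 16.3 in CTRL and 4.26, 6.64 and 8.42 in VPA (log2 difference −1.46, SE 0.24, limma adjusted p = 0.00193 with the block). Its window held neither an SP/KLF match nor the Alu string.

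The strongest regions in all 6 libraries were CpG-rich and tall. The region near CDKN2C, a cell cycle inhibitor, had 35.2, 95.3 and 111 in CTRL and 23, 60.5 and 61.1 in VPA (log2 difference −0.71, limma adjusted p = 0.0241 with the block). The region near SMIM47 lay beside the start of the pseudogene C19orf48P and had 18.4, 69.2 and 78.4 in CTRL and 14.0, 38.3 and 31.7 in VPA (−0.85, limma adjusted p = 0.0130 with the block). A region 70.3 kb upstream of EP300, which encodes the acetyltransferase p300, had 17.5, 73.3 and 52.7 in CTRL and 11.3, 31.6 and 33.4 in VPA (−0.84, limma adjusted p = 0.0117 with the block). Those near IGLL1 and H3-3A, at −0.52 and −0.54, did not pass the threshold. In each of the 5 the groups overlapped, since CTRL replicate 1 lay below VPA replicates 2 and 3.

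The regions were spread over 4742 nearest genes, of which 2548 had exactly 1 region and 37 at least 10. MAP1LC3B2, of the LC3 family of autophagy genes, had the most with 21, of which 9, 7 and 6 had a peak in CTRL and 20, 13 and 11 in VPA. It was followed by HEY1 (a Notch target) with 19, PIM1 (a kinase) with 17, and RHOU, SFMBT2 (a Polycomb group protein) and TARBP1 (an RNA methyltransferase) with 16 each. The promoters of these 5 had H3K27ac in 6 libraries and that of MAP1LC3B2 in 0. In all, 655 genes were nearest to at least 1 region only in VPA, 4 of them each for IZUMO2 and KATNAL1, and all 3 regions of PNMA8B were only in VPA; these 3 genes were chosen after their values were seen.

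Within 10 kb of another region of the set lay 5230 regions (54.3%), in 1885 clusters. The largest held 19 regions over 70.1 kb between TARBP1 and IRF2BP2 (chr1:234488819-234558967), of which 9, 10 and 7 had a peak in CTRL and 14, 11 and 12 in VPA, and 0 were only in VPA. Others held 14 regions near SPN and NPIPB12, with 3, 3 and 3 in CTRL and 9, 7 and 9 in VPA, and 13 each near IER5, ZNF703 and HEY1. NPIPB12 belongs to a multicopy family, so that cluster is uncertain. Regions only in VPA lay in clusters in 56.4% of cases and those in all 6 libraries in 55.2%.

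The promoter of the nearest gene had H3K27ac in all 6 libraries for 66.8% of the regions and in none for 24.6%. For regions only in VPA these shares were 68.4% (Wilson interval 64.9 to 71.7) and 22.3%. Of the 725 regions only in VPA, 1 was nearest to a gene whose promoter was likewise only in VPA, compared with 27 of all 9638 regions. Promoter regions were rarely only in VPA (0.396%), and these counts were not tested.

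Gene lists chosen for the tissue and the treatment held 6 to 50 regions each, and their shares only in VPA were not tested against that of the whole set. Near AP-1 and immediate early genes lay 44 regions, with 14, 13 and 12 in CTRL and 34, 26 and 25 in VPA. Of these 4 were only in VPA (9.09%, compared with 7.52% of the whole set): 2 near FOS, at 24.7 and 29.0 kb, and 1 each near IER2 and DUSP1. Near genes of TGF-beta and BMP signalling lay 50 regions, with 13, 26 and 24 in CTRL and 35, 35 and 33 in VPA. Of these 3 were only in VPA (6%), near SMAD3, SMAD6 and SKIL, and the blocked fit called 1 region near SMAD6 higher and 1 near SMAD7 lower, of 11 tested, against the background of 4.73% and 11.8%. Near kidney transcription factors lay 41 regions, with 11, 20 and 16 in CTRL and 23, 22 and 26 in VPA, of which 2 were only in VPA (4.88%), near GATA3 and FOXC1. Neuronal genes had 6 regions and genes of histone deacetylases and acetyltransferases 10, with 0 only in VPA in either list, and in the latter the EP300 region was called lower, 1 of 3 tested.

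CTCF overlapped part of the set, and no difference between the treatments was larger than the spread between libraries. A CTCF peak was found at 27.4%, 31.0% and 30.6% of the 9638 regions in CTRL and at 25.3%, 30.6% and 30.2% in VPA, with overlapping groups. The difference was −0.93 percentage points (29.6% ± 1.96 and 28.7% ± 2.95, SD over 3 libraries each, exact permutation p = 0.6, adjusted p = 0.6). It lay within the spread between libraries and was −2.08, −0.32 and −0.40 within replicates 1, 2 and 3 (exact permutation p = 0.25 with the block, the smallest possible). It was −0.363 without replicate 1 of both treatments and turned to 0.764 only where VPA replicate 1 alone was left out, and replicate 1 was the lowest in both treatments. The same share was 20.0% in CTRL and 19.0% in VPA for regions inside genes and 48.7% and 48.4% for promoters. In all, 3253 regions (33.8%) had a CTCF peak in at least 1 library and 2279 (23.6%) in all 6.

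H3K27ac was also compared by CTCF status. Of the 2279 regions with CTCF in all 6 libraries, 8.38% were only in VPA, compared with 7.2% of the 6385 without a CTCF peak. The median log2 difference at regions in all 6 H3K27ac libraries was 0.09 and 0.18. The CTCF motif was found around the H3K27ac summit in 9.52% (Wilson interval 8.38 to 10.8) and 5.23% (4.71 to 5.80). None of these differences was tested.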

How the data were processed

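H3K27ac and CTCF ChIP-seq peak lists of 12 libraries were analysed, and the 6 input libraries of the series were not used here. Per the submitters' notes and methods, reads were aligned to hg38 with Bowtie2 and peaks were called in each library with MACS3 (3.0.0a7) at a q-value of 0.05. The use of input, duplicates and reads with several matches is not given in the sources used here. The deposited lists hold the fold enrichment of each summit (a ratio), its −log10 p-value and q-value as the authors' peak caller gave them, and a score that the authors' caller derived from the q-value. Lists hold no read totals, so depth is unknown. The summit pileup and background were recovered from fold and p-value, and the pileup was whole within 0.05 in 100% of peaks. Intervals cover counting error only.

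Regions were annotated with GENCODE release 44 in Python 3.11.15 (numpy 2.4.6, pandas 2.3.3, scipy 1.17.1). Values per library were compared by exact permutation tests (20 assignments, smallest p = 0.1, and 8 within replicate numbers, smallest p = 0.25). Log2 fold enrichment was tested with limma 3.58.1 (R 4.3.3, trend, threshold 0.05), checked on simulated data. The study's own DiffBind test needs reads and was not run. Deviations of same-numbered libraries from their group means correlated at 0.865, 0.585 and 0.591, so the numbers were taken as pairs and blocked counts are given. Replicates 2 and 3 also correlated across numbers (0.607 and 0.554), so the pairing comes mainly from replicate 1.

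Named were the 6 strongest regions only in VPA, the 4 only in CTRL and the 5 in all 6 libraries by mean rank, the 5 called regions with the largest difference in each direction, the 6 genes and 5 clusters with the most regions, and genes of the fixed lists near a region only in 1 treatment or called. Of these, 1 region only in VPA and some sequences that this rule names are not reported here. The set and the lists were chosen with earlier results of these data known. CpG, Alu, distance and small nuclear RNA groups were formed after values were seen. Motifs were common consensus strings, and the Alu string was read from hg38. Alternatives were a stricter q-value, equal list lengths, a peak over the summit, the TSSs of all transcripts, other scales, each library left out and the replicate block.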

Additional observations from a re-analysis of the deposited data

How the results depend on the processing

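The number of regions with a peak and their share of each list kept their direction in every alternative, without any library and in the paired test (replicate block, differences 2933.33 and 3.85, exact permutation p = 0.25, the smallest possible). So did the log2 ratio to regions inside genes (0.09, exact permutation p = 0.25 with the replicate block), at 0.03 to 0.12 without 1 library, with p from 0.1 to 0.4. The CTCF share differed by −0.93 (exact permutation p = 0.25 with the replicate block) and by −2.06 to 0.764 without 1 library, reversed only without VPA replicate 1. It was −0.363 without replicate 1 of both treatments, so the sign turned where only the VPA library of that pair was left out. Regions only in VPA numbered 206 with equal list lengths (2.14%, background 0.975%). They numbered 855 to 1433 without 1 library (8.87% to 14.9%, background 5.13% to 10.1%). Without replicate 1 of both treatments they numbered 1622 (16.8%, background 11.4%). Regions only in CTRL numbered 35, 11 to 47 and 60 in the same settings (253, 104 to 342 and 424 among all regions). Fewer libraries had to have a peak where any was left out. limma without the block called 0 higher and 0 lower with or without any library, by the centred scale and for peaks with a −log10 q-value from 3 up. It called 240 higher (12.4%, background 4.04%) and 108 lower (5.58%, background 13.3%) on the pileup scale. Without replicate 1 it called 167 higher (background 2.79%) and 62 lower (background 6.19%). With the replicate block it called 238 and 86 (background 4.73% and 11.8%) and, after centring, 300 and 66 (6.45% and 8.57%). On the pileup scale with the block it called 582 and 463 (background 12.2% and 53.7%). Of the 238 and 86, 96 and 48 were called without replicate 1. The alternatives without replicate 1 and those combined with the block were chosen after seeing the data, as were all alternatives for CpG, distance and Alu groups. Between genes the ratios of VPA to CTRL of these groups stayed above 1 in each. With equal list lengths they lay closer together, at 1.32 below 10 CpG and 1.05 from 10 CpG on. They were then 1.52 with the Alu string and 1.17 without it. Inside genes the ratio from 50 to 100 kb was then 0.950. When 1 library was left out, the ratio between genes was 2.45 to 2.74 with the Alu string and 1.63 to 1.85 without it. Peaks near the calling threshold limit what a count of regions shows, and a region absent from a list was not detectable at this depth.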
